A study of Mus musculus with 6 samples.

Results

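The genes described here are 35 astrocyte-enriched genes, chosen by symbol from a fixed list and matched by Ensembl identifier (GENCODE M21) to the 46078 genes of the deposited striatal table. All 35 were found, and all 35 passed the filter (mean over the 6 libraries of 10 or more normalized read counts), which left 17605 genes for testing. The libraries came from the striatum of male C57BL/6J mice aged 12 weeks, 3 of them Shank3 TG and 3 WT, each mouse giving 1 library. The TG mice carried an EGFP-Shank3 transgene in addition to the endogenous gene, and the striatum was dissected with a brain matrix, so each library holds RNA from every cell type of the tissue. A normalized read count is the HTSeq count of a gene divided by the DESeq2 size factor of its library.

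Astrocytes are the glial cells that take up glutamate, GABA and glycine after synaptic release, convert glutamate to glutamine, buffer ions and water at the blood vessels, and supply neurons with lipids and metabolites. Glutamate released by cortical and thalamic axons in the striatum is cleared mainly by the astrocyte transporters GLT-1 (Slc1a2) and GLAST (Slc1a3). Under injury or inflammation astrocytes become reactive, a state long marked by the intermediate filament protein GFAP. Several genes of the list are also used by other cells. Apoe and Cst3 are expressed by microglia, Glul and S100b by oligodendrocytes, and Clu by neurons and choroid plexus. In bulk tissue, fewer astrocytes and less RNA per astrocyte cannot be told apart.

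Between 27689589 and 36647626 counts per library fell on genes. Shank3 itself had 26043.6 to 29891 normalized read counts in TG mice and 12918 to 13865 in WT mice, so the libraries matched their genotype labels. Choroid plexus markers stood apart in TG replicate 1. The summed level of 14 such markers, among them Ttr, Clic6 and Kl, was 15957 normalized read counts in that library, 2080.5 and 703 in TG replicates 2 and 3, and 618 to 986 in WT mice. Results for the astrocyte genes are therefore also given without TG replicate 1.

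No astrocyte gene passed the test between Shank3 TG and WT striatum after adjustment for all genes tested. By limma 0 of the 35 genes passed an adjusted P value of 0.05 (lowest 0.971), and the count was also 0 with edgeR's quasi-likelihood test, with DESeq2 and with DESeq2 with a fold change prior and an empirical null. Over all genes tested, limma called 0.00568%, which is Shank3 alone. The astrocyte genes nevertheless lay mostly on the lower side, with small differences. The TG mean was below the WT mean in 29 of the 35 genes, against 50.8% of all genes tested and 46.8% of the 9006 tested genes at least as abundant as the lowest member. The median log2 fold change was -0.06, against 0.00 over all genes, and the range ran from -0.42 for Gfap to 0.16 for Gjb6. At an unadjusted limma P value under 0.05 there were 5 lower members, Sox9, Fgfr3, Clu, Acsbg1 and Mfge8 (all genes tested, 2.33%), and 0 higher members (all genes tested, 1.98%). The counts were also 5 and 0 with edgeR (all genes tested, 2.40% lower) and with DESeq2 (all genes tested, 1.30% lower). The values of the 3 TG mice lay entirely below those of the 3 WT mice in 5 members (all genes tested, 5.05%) and entirely above in 1 (all genes tested, 5.06%). With 3 mice against 3, an exact permutation test cannot go below P = 0.1.

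**Figure D1:**
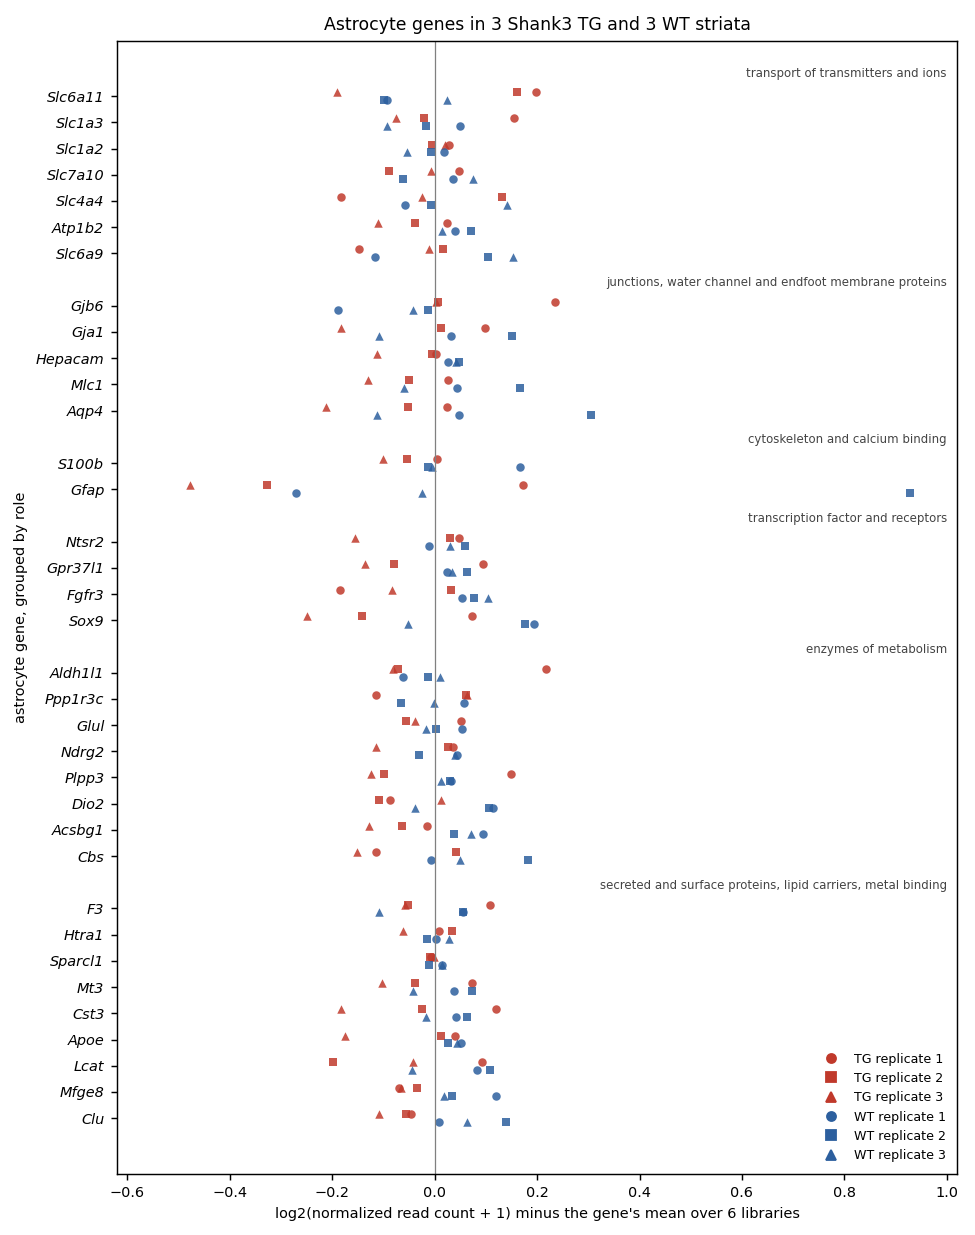
Each row is 1 of the 35 astrocyte genes, and each point is 1 library, placed by its log2(normalized read count + 1) minus the mean of that gene over the 6 libraries, in red for TG and blue for WT mice. Most points lie close to 0, TG replicate 3 is the leftmost point in 21 of the 35 rows, and WT replicate 2 stands far to the right for Gfap.

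The lower values were most frequent in TG replicate 3. It held the lowest value of 21 of the 35 members (60%), against 16.1% of all genes tested, while TG replicate 1 and WT replicate 2 each held the highest value of 10 members (28.6%, against 17.8% and 13.9% of all genes tested). Relative to each gene's mean over the 6 libraries, the median member stood at 0.04, -0.03 and -0.10 for the TG libraries 1, 2 and 3, and at 0.04, 0.05 and 0.01 for the WT libraries 1, 2 and 3 on the log2 scale. These TG medians were spread more widely than the WT medians, and TG replicate 1 lay within the WT range. Without TG replicate 3, 23 of 35 members were lower (all genes tested, 51.1%), and the median log2 fold change was -0.03. At an unadjusted P value under 0.05 there were then 1 lower member, Dio2 (all genes tested, 1.35%), and 2 higher, Gjb6 and Slc6a11 (all genes tested, 1.51%). Sox9, Fgfr3, Clu, Acsbg1 and Mfge8 were not among them. Without TG replicate 1, 30 of 35 were lower (all genes tested, 49.9%), the median was -0.10, and 15 lay entirely below the WT values (all genes tested, 13%). In that fit 7 members were lower at an unadjusted P value under 0.05 (all genes tested, 4.55%). These were Acsbg1, Atp1b2, Clu, Gfap, Gpr37l1, Plpp3 and Sox9, and Fgfr3 and Mfge8 were not among them. Adjusted limma P values passed 0.05 for 0 members in any of the 6 fits that left out a library. The 35 genes took 1.24%, 1.20% and 1.15% of all counts in TG replicates 1, 2 and 3 and 1.22%, 1.24% and 1.20% in WT replicates 1, 2 and 3, so the groups overlapped, and the 3 largest members made up 0.536% to 0.556% of all counts.

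Sequences upstream of the start site are shown for 3 of the 5 members with an unadjusted P value under 0.05, since RefSeq promoter windows were at hand for Fgfr3, Acsbg1 and Mfge8, and for Gfap, the member with the largest difference. The windows cover up to 250 bases before a RefSeq start (GRCm38.p6), written 5′ to 3′ on the strand of the gene. They lie at chr5:33721474-33721673 (plus strand, cut before the annotated exon) for Fgfr3, chr9:54661886-54662135 (minus strand) for Acsbg1, chr7:79149061-79149310 (minus strand) for Mfge8 and chr11:102897201-102897450 (minus strand) for Gfap. Capitals mark matches, on either strand, to the GC box GGGCGG or to the STAT pattern TTCNNNGAA.
Fgfr3: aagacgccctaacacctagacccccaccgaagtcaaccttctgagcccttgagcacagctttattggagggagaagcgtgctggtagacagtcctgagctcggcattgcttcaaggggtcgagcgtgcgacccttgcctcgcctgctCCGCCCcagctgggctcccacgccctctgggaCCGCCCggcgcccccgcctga
Acsbg1: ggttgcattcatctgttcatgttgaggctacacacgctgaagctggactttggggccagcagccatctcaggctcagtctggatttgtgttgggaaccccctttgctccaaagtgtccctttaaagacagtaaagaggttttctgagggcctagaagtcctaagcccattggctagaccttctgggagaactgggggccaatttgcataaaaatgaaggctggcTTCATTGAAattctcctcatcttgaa
Mfge8: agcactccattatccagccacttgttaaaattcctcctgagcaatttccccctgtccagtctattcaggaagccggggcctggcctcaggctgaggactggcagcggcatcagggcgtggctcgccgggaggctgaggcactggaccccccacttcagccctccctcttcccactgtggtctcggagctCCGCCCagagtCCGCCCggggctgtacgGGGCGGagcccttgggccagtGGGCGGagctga
Gfap: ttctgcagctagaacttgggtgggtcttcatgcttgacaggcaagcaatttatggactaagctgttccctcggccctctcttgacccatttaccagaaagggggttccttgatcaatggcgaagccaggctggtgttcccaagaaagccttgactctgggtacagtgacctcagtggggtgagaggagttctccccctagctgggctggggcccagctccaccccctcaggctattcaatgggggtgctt
The 4 windows have little in common. Mfge8 held 4 GC boxes and 12 CpG sites, and Fgfr3 held 2 GC boxes and 14 CpG sites in 200 bases. The Acsbg1 window held 1 STAT match and 1 CpG site, and the Gfap window held 2 CpG sites and 0 matches to these patterns. Over the 38 windows of the 30 members with an entry, the GC box occurred in 42.1%, against 32.7% of all 32851 windows, and TTCNNNGAA in 7.89% against 7.02%. The NFI motif TTGGCA occurred in 7.89% of member windows and 12.3% of all windows, and the SOX core ACAATG in 5.26% and 10.7%. No pattern contains another, and a match is a description of the sequence only. The Gfap window lies upstream of a RefSeq start but inside the longer gene annotated by GENCODE.

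The members were well expressed, and their levels spanned a wide range. Scaled as RPKM (recovered counts divided by the library total and by the annotated exon length), the level averaged over the 6 libraries ran from 644 ± 45.2 (SD over 6 libraries) for Cst3 to the lowest value for Cbs, a 161-fold span. Cst3, which encodes the secreted protease inhibitor cystatin C, was followed by Sparcl1 (484 ± 2.64), Apoe (448 ± 25.7) and Glul (390.5 ± 11.4), and each of these stood above the next in all 6 libraries. Slc1a2 came next at 209 ± 4.23 and exceeded Clu, at 195 ± 12.3, in 4 of the 6 libraries. Slc1a2 and Clu stood at 211 ± 2.04 and 186 ± 4.60 in TG mice (SD, n = 3). In WT mice they stood at 207 ± 4.78 and 205 ± 10.2 (SD, n = 3), within their spread. Of the 34 neighbouring pairs in the order, 17 kept their order in all 6 libraries and 17 did not. Among all genes tested with an annotated length, the members lay between the 50.8th and the 99.9th percentile, with a median at the 91.1st. The defining astrocyte markers Slc1a2, Slc1a3, Aqp4, Gja1, Aldh1l1 and Gfap were thus each present in every library, with at least 1658 normalized read counts.

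**Figure D2:**
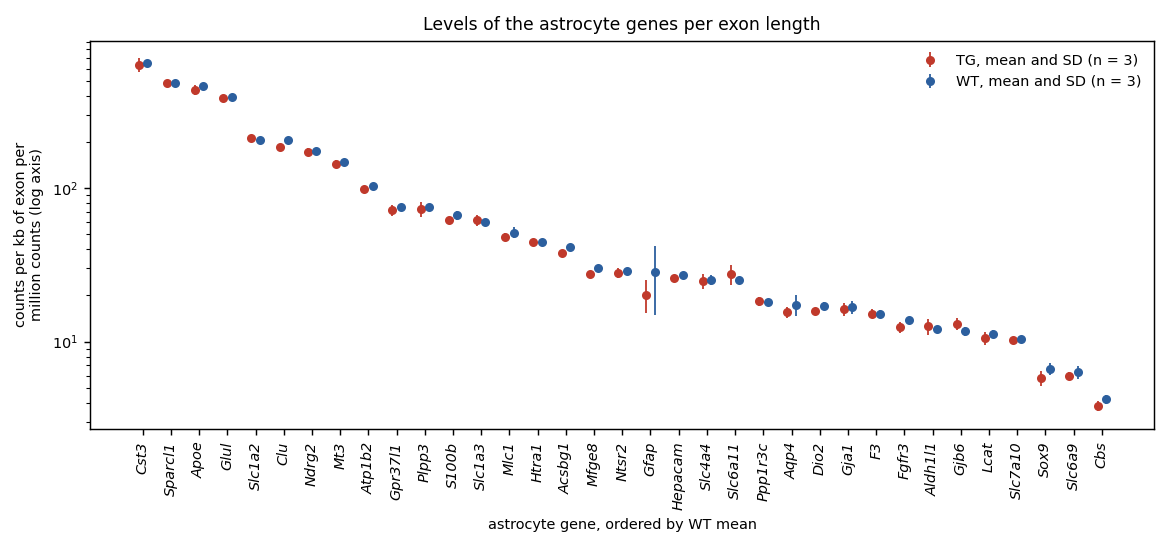
Mean level of the 35 astrocyte genes as RPKM (counts per kilobase of exon, scaled to the library total) on a log axis, for 3 TG mice (red) and 3 WT mice (blue), with bars for the SD and genes ordered by the WT mean. The red and blue points lie close to each other along the whole order from Cst3 to Cbs, and Gfap has the widest bars.

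Transporters of transmitters and ions went both ways, with small differences. Their 7 members had log2 fold changes between -0.09 and 0.11, with 4 lower and 3 higher, and 0 passed an unadjusted limma P value of 0.05. Slc1a2 (ENSMUSG00000005089; chromosome 2, 102658659 to 102790784, GRCm38) encodes GLT-1, the main glutamate transporter of the adult forebrain. It had 88066, 86045 and 87659 normalized read counts in TG replicates 1 to 3, against 87472, 85973 and 83230.2 in WT replicates 1 to 3. The groups overlapped, and the log2 fold change was 0.03 (95% interval -0.10 to 0.16 by limma). Slc1a3, which encodes GLAST, had 18139.9, 16059 and 15463 in the TG libraries (1 to 3) and 16871, 16114 and 15270.0 in the WT libraries, with TG replicate 1 the highest and the other TG values within the WT range. Its log2 fold change of 0.04 (95% interval -0.11 to 0.18) became -0.03 without TG replicate 1. Per exon length Slc1a2 exceeded Slc1a3 by 3.44-fold ± 0.267 in TG mice and 3.46-fold ± 0.0866 in WT mice (SD, n = 3 each, two-sided exact permutation test, P = 0.9).

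Slc6a11 encodes the GABA transporter GAT-3. The counts were 4779, 4660.0 and 3649 in TG replicates 1 to 3, against 3904, 3891 and 4234 in WT replicates 1 to 3. TG replicates 1 and 2 lay above all WT values and TG replicate 3 below them. The log2 fold change was 0.11 (95% interval -0.09 to 0.31), 0.04 without TG replicate 1 and 0.24 without TG replicate 3. Slc6a9 encodes the glycine transporter GlyT1 and differed by -0.09 on the log2 scale (standard error, SE 0.08), with 896 to 1004 normalized read counts in TG mice and 916 to 1103 in WT mice. Of its 5141 exon bases, 1429 are shared with Ccdc24 on the opposite strand, where reads cannot be assigned without strand, and whether strand was used in counting is not given in the sources used here. Slc7a10 encodes the neutral amino acid exchanger Asc-1 and shares 377 of 2111 exon bases with Lrp3 in the same way, with a log2 fold change of -0.03. Slc4a4, a sodium bicarbonate cotransporter, differed by -0.05 on the log2 scale (SE 0.08). Atp1b2, the beta-2 subunit of the sodium pump, differed by -0.08 on that scale (SE 0.05).

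Among the 5 proteins of junctions and vascular endfeet, 4 were lower and 1 higher. Gjb6 (ENSMUSG00000040055; chromosome 14, 57123303 to 57133611) encodes connexin 30, an astrocyte gap junction protein. It was the only member with TG values entirely above the WT values, with 1222, 1043 and 1041 normalized read counts in TG replicates 1 to 3, against 911, 1029 and 1009 in WT replicates 1 to 3. The gap between the lowest TG and the highest WT value was small next to the excess of TG replicate 1. The log2 fold change was 0.16 (SE 0.08, limma adjusted P = 0.971) and stayed between 0.09 and 0.20 with each library left out. Gja1, the other astrocyte connexin (connexin 43), had 5687, 5354 and 4677 in the TG libraries (1 to 3) and 5426, 5896 and 4924 in the WT libraries (log2 fold change -0.05). Per exon length the ratio of Gja1 to Gjb6 was 1.24 ± 0.0867 in TG mice and 1.44 ± 0.148 in WT mice (SD, n = 3 each, two-sided exact permutation test, P = 0.2).

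Hepacam encodes the adhesion protein GlialCAM, which holds the membrane protein MLC1 at astrocyte contacts. Its values were 2814, 2801 and 2598 in TG replicates 1 to 3, against 2861, 2905 and 2890.2 in WT replicates 1 to 3. All TG values lay below the WT values, although TG replicate 1 was close to WT replicate 1, and the log2 fold change was -0.08 (SE 0.05). Mlc1 differed by -0.10 on the log2 scale (SE 0.06). Aqp4, which encodes the endfoot water channel aquaporin-4, had 3267, 3099 and 2773 in the TG libraries (1 to 3) and 3318, 3968 and 2972 in the WT libraries. Its log2 fold change of -0.16 (SE 0.10) was -0.05 without WT replicate 2, the highest library.

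Gfap had the largest difference of the list and the widest spread. Its counts were 3431, 2424 and 2187 in TG replicates 1 to 3, against 2522, 5794 and 2991 in WT replicates 1 to 3. WT replicate 2 lay far above every other library, and the remaining values of the groups overlapped. The log2 fold change was -0.42 (SE 0.26, limma adjusted P = 0.971), which is -25.3% with a 95% interval from -49.9% to 11.3%. Without WT replicate 2 it was -0.06, and without WT replicate 1 it was -0.66. The within-genotype SD of Gfap was 0.51 on the log2 scale, against a median of 0.08 over the members and 0.11 over all genes tested. Vim, which encodes the filament protein vimentin, was also highest in WT replicate 2 (1477) and next in TG replicate 1 (1314), with 918 to 1005 in the other 4 libraries. Ependymal markers followed the same order. The summed level of 10 such markers, among them Foxj1 and Ak7, was 1474 in WT replicate 2, 1104 in TG replicate 1 and 749 to 863 in the others, and 9 of 9 tested markers had a log2 fold change below 0. For the ependymal list the median log2 fold change was -0.18, or 0.02 without WT replicate 2, and the part of ependymal cells in the Gfap values was not tested. S100b, a calcium-binding protein, differed by -0.10 on the log2 scale (SE 0.06).

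**Figure D3:**
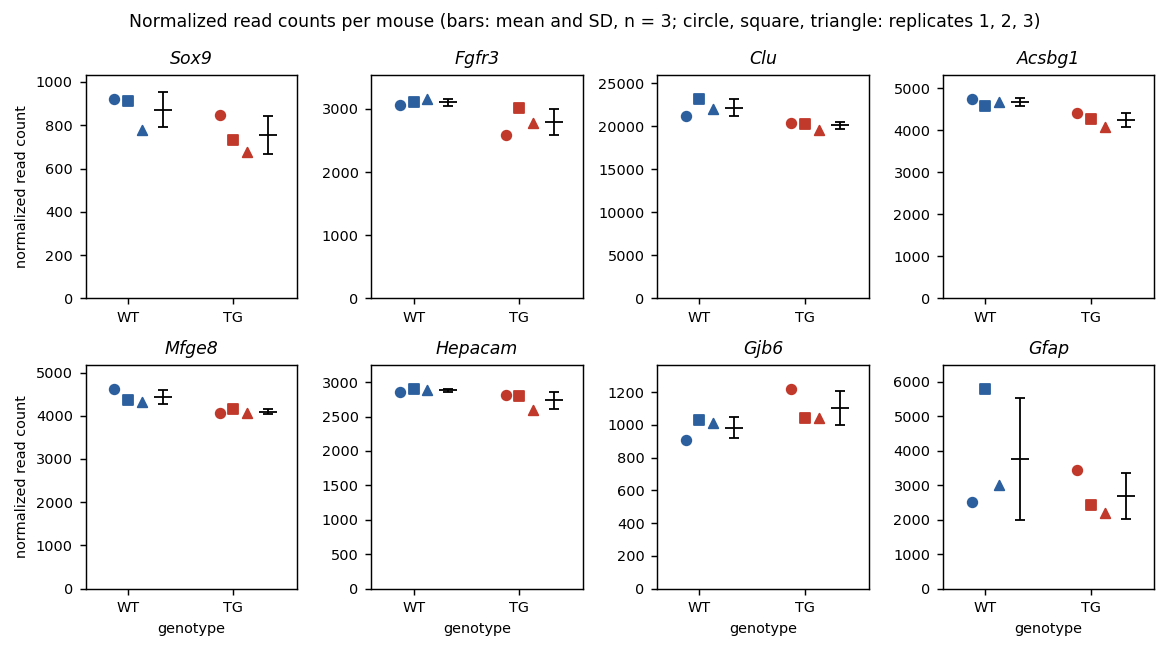
Normalized read counts of 8 astrocyte genes in each of the 3 WT mice (blue) and 3 TG mice (red), with axes that start at 0, symbols for replicates 1, 2 and 3, and black bars for the mean and SD. Fgfr3, Clu, Acsbg1, Mfge8 and Hepacam have every red point below every blue point, Gjb6 has the reverse, and for Gfap the WT replicate 2 point of 5794 lies far above the rest.

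The transcription factor and the 3 receptors of the list all had log2 fold changes below 0, between -0.21 and -0.05. Sox9 (ENSMUSG00000000567; chromosome 11, 112782224 to 112787760) encodes the transcription factor that starts gliogenesis and stays on in adult astrocytes. It had 849, 732 and 679 normalized read counts in TG replicates 1 to 3, against 924, 912 and 779 in WT replicates 1 to 3, and TG replicate 1 lay above WT replicate 3. The log2 fold change was -0.21 (SE 0.09, limma adjusted P = 0.971), and its unadjusted P value was under 0.05 in 2 of the 6 fits that left out a library. It was not under 0.05 with library totals or with a filter at a mean of at least 50. Fgfr3 (ENSMUSG00000054252; chromosome 5, 33721674 to 33737068) encodes a fibroblast growth factor receptor of astrocytes and their precursors. It had 2591, 3011 and 2780.0 in TG replicates 1 to 3, against 3057, 3104 and 3166 in WT replicates 1 to 3. All TG values lay below the WT values, and for this gene TG replicate 1 was the lowest. The difference was -10.3% (95% interval -17.9% to -1.96% by limma), a log2 fold change of -0.16 (SE 0.06, limma adjusted P = 0.971). The unadjusted P value of Fgfr3 was under 0.05 in 2 of the 6 fits that left out a library, and not without TG replicate 1. Of its 7158 exon bases 998 are shared with G630022F23Rik on the opposite strand. Gpr37l1, an orphan receptor, and Ntsr2, a neurotensin receptor of astrocytes, had log2 fold changes of -0.08 and -0.05 (SE 0.06 each).

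Among the 8 metabolic genes, 6 were lower and 2 higher in TG mice, between -0.15 and 0.04. Acsbg1 (ENSMUSG00000032281; chromosome 9, 54604877 to 54661870), an acyl-CoA synthetase for long-chain fatty acids, had the lowest unadjusted P value of the list by limma, whereas Clu had the lowest by edgeR and DESeq2. Its counts were 4413, 4262 and 4079 in TG replicates 1 to 3, against 4759.9, 4576 and 4683 in WT replicates 1 to 3, with a clear gap between the groups. The difference was -9.06% (95% interval -15.3% to -2.30% by limma), a log2 fold change of -0.14 (SE 0.05, limma adjusted P = 0.971). It stayed between -0.16 and -0.11 with each library left out, and the unadjusted P value stayed under 0.05 in 5 of those 6 fits, with the exception of the fit without TG replicate 3. Glul encodes glutamine synthetase, which closes the glutamate cycle, and had 42305, 39286 and 39773 in the TG libraries (1 to 3) and 42383, 40920.1 and 40367 in the WT libraries. The groups overlapped, with a log2 fold change of -0.03 (95% interval -0.15 to 0.09). Aldh1l1, the folate enzyme used as a general astrocyte marker, had 2040.4, 1670.2 and 1658 in the TG libraries (1 to 3) and 1681, 1739 and 1769 in the WT libraries. TG replicate 1 was the highest library and the other TG values lay below all WT values, so the log2 fold change of 0.04 became -0.06 without TG replicate 1. It shares 499 of 4516 exon bases with Gm15756 on the opposite strand.

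The thyroid hormone deiodinase Dio2 (log2 fold change -0.12, SE 0.06) and cystathionine beta-synthase Cbs (-0.15, SE 0.07) had 95% intervals that just reached 0. Dio2 counts were 2821, 2782 and 3024 in the TG libraries (1 to 3) and 3245, 3227 and 2919 in the WT libraries, and only WT replicate 3 fell within the TG range. Cbs counts were 869, 968 and 846 in the TG libraries (1 to 3) and 936, 1067 and 974 in the WT libraries, with TG replicate 2 above WT replicate 1. Plpp3, a lipid phosphatase, had a log2 fold change of -0.05 and was highest in TG replicate 1 (8143), with 6853 and 6740.2 in TG replicates 2 and 3 and 7406 to 7503 in WT mice. Ndrg2 (-0.03) and the glycogen-targeting phosphatase subunit Ppp1r3c (0.01) differed little, with SEs of 0.05 and 0.06.

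All 9 secreted, surface and metal-binding proteins had log2 fold changes below 0, from -0.14 for Clu to -0.0014 for F3, which turned above 0 when counts were scaled by library totals. Cst3, F3 and Htra1 also turned above 0 when TG replicate 3 was left out. Clu (ENSMUSG00000022037; chromosome 14, 65968483 to 65981547) encodes clusterin, an extracellular chaperone and lipid carrier. Its counts were 20422, 20274 and 19562 in TG replicates 1 to 3, against 21222, 23219.9 and 22035 in WT replicates 1 to 3. All TG values lay below the WT values, including TG replicate 1, and the difference was -9.31% (95% interval -16.1% to -1.94% by limma). The log2 fold change of -0.14 (SE 0.05, limma adjusted P = 0.971) stayed between -0.17 and -0.11 with each library left out. Its unadjusted P value was under 0.05 in 4 of those 6 fits. Mfge8 (ENSMUSG00000030605; chromosome 7, 79133768 to 79149060) encodes a secreted bridge between phosphatidylserine and integrins of phagocytes. It had 4057, 4159 and 4067 in TG replicates 1 to 3, against 4626, 4363 and 4312 in WT replicates 1 to 3. Here the TG mice were close to each other, all below the WT mice, with a log2 fold change of -0.11 (SE 0.05, limma adjusted P = 0.971). The unadjusted P value of Mfge8 was under 0.05 in 3 of the 6 fits that left out a library, and not without TG replicate 1.

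Apoe encodes the main lipid carrier of the brain, and had 30994, 30391 and 26688 in the TG libraries (1 to 3) and 31209, 30702 and 31078 in the WT libraries. TG replicates 1 and 2 lay beside the WT values and TG replicate 3 well below them, with a log2 fold change of -0.08 (SE 0.06), or -0.01 without TG replicate 3. Cst3 showed the same order in TG mice, with 27799.8, 25166 and 22565 against 25292 to 26759 in WT mice (log2 fold change -0.06). Sparcl1, which encodes the synapse-promoting matrix protein hevin, was the steadiest member. It had 44549.7, 44465 and 44726 in the TG libraries (1 to 3) and 45222, 44444 and 45239.7 in the WT libraries, a within-genotype SD of 0.01 on the log2 scale. The cholesterol-esterifying enzyme Lcat (-0.10), the metallothionein Mt3 (-0.05), the serine protease Htra1 (-0.01) and tissue factor F3 (-0.0014) had SEs between 0.05 and 0.09.

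**Figure D4:**
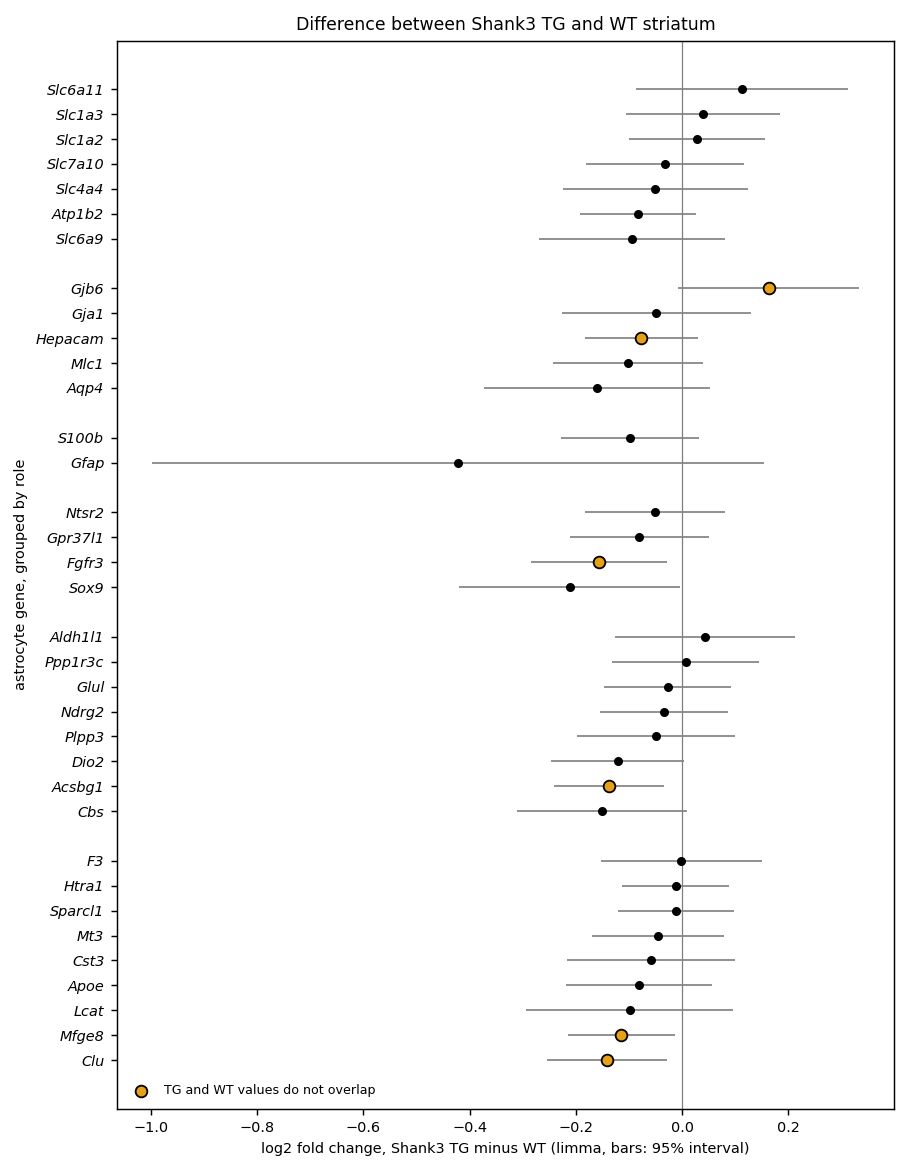
Log2 fold change, TG minus WT, for each of the 35 astrocyte genes, grouped by role, with the 95% interval from limma as bars and large yellow points where TG and WT values did not overlap. Most points lie left of 0, 30 intervals include 0, and the interval of Gfap is the widest.

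The intervals also show how large a difference the data allowed. The 95% interval reached between 0.10 and 0.58 to either side on the log2 scale, with a median of 0.14. In 30 of the 35 genes the whole interval lay within 20% of no difference. The 5 other genes were Gfap, Aqp4, Sox9, Gjb6 and Slc6a11, for which a difference of over 20% lay within the interval.

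The companion lists showed how other astrocyte and reactive genes stood in the same mice. Of 25 further astrocyte genes, 14 were lower and 11 higher, with a median log2 fold change of -0.02. Their summed level was also lowest in TG replicate 3, at 60269 against 63469 to 65322 in the other libraries. That library held the lowest value of 7 of the 25 genes (28%, against 16.1% of all genes tested). At an unadjusted P value under 0.05, 3 were lower (Sox2, Grin2c and Fgfr2, all genes tested, 2.33%) and 1 was higher (Etnppl, all genes tested, 1.98%). After adjustment 0 passed by limma, edgeR or DESeq2. The TG values lay entirely below the WT values in 4 genes, Aldoc, Tril, Sox2 and Grin2c (all genes tested, 5.05%), and entirely above in 0 (all genes tested, 5.06%). Grin2c, the NMDA receptor subunit found in astrocytes, had 1944, 2050.1 and 1966 in the TG libraries (1 to 3) and 2236, 2226 and 2327 in the WT libraries. These groups did not overlap, and the log2 fold change of -0.19 (SE 0.05, limma adjusted P = 0.971) stayed between -0.21 and -0.17 with each library left out. Sox2, a transcription factor of neural precursors and astrocytes, had 955, 890.2 and 794 in the TG libraries (1 to 3) and 991, 1099.8 and 979.8 in the WT libraries, again without overlap (log2 fold change -0.22). Fgfr2 differed by -0.14 on the log2 scale (SE 0.06), close to that of its paralog Fgfr3, with 1644 to 1749 in TG mice and 1709 to 1987 in WT mice. Etnppl, an enzyme that degrades phosphoethanolamine, went the other way with 738, 731 and 568 in the TG libraries (1 to 3) and 331, 459 and 623 in the WT libraries. The WT values were widely spread, and the log2 fold change of 0.56 was 0.33 without WT replicate 1. The most abundant genes of this list were Aldoc (-0.07), Kcnj10 (-0.06), the inward rectifier channel of astrocytes, and S1pr1 (0.02).

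Reactive astrocyte genes went both ways. The median log2 fold change was -0.02 over 11 tested of 12 genes induced in every reactive state, 0.02 over 11 of 12 of the inflammatory set known as A1, and -0.14 over 10 of 12 of the ischaemic set known as A2, with 5, 6 and 3 genes higher and 6, 5 and 7 lower. TG replicate 1 held the highest value of 7 of the 11 A1 genes, and without it the A1 median was -0.145. After adjustment 0 passed by limma and by edgeR, and DESeq2 called 1 (Lcn2). At an unadjusted limma P value under 0.05 there were Lcn2 and Amigo2, both with a higher TG mean (all genes tested, 1.98%). On the lower side there were 0 (all genes tested, 2.33%). Lcn2, which encodes the iron-binding lipocalin-2, had 105, 48.3 and 27.3 normalized read counts in TG replicates 1 to 3, against 10.3, 17.8 and 17.7 in WT replicates 1 to 3. All TG values lay above the WT values, in the same order of TG mice as the summed choroid plexus markers (15957, 2080.5 and 703). Its log2 fold change was 1.74 (SE 0.42) and 1.24 without TG replicate 1, with an adjusted P of 0.971 by limma, 0.976 by edgeR and 0.0321 by DESeq2, and the part of choroid plexus in it was not tested. Amigo2, which encodes a neuronal adhesion protein, differed by 0.26 on the log2 scale (SE 0.11). The most abundant reactive genes were Vim (-0.11), Cp (0.15) and Serpina3n (-0.02) of the shared set, Fkbp5 (0.11), H2-D1 (0.02) and H2-T23 (0.10) of A1, and S100a10 (-0.08), Ptgs2 (0.44) and Tm4sf1 (-0.18) of A2. Ptgs2 had 531 normalized read counts in TG replicate 1, 301 and 308 in TG replicates 2 and 3 and 238 to 322 in WT mice, and with TG replicate 1 left out it differed by 0.17 on the log2 scale.

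The other genes of glutamate and GABA handling were even as well. Of 21 other genes for transporters and enzymes of the glutamate and GABA cycle, 9 were lower and 12 higher. The median log2 fold change was 0.02, and 0 passed an unadjusted P value of 0.05 by limma or an adjusted one by limma, edgeR or DESeq2. The most abundant were the vesicular transporter Slc17a7 (-0.01), the GABA-synthesising enzyme Gad1 (0.11) and the GABA transaminase Abat (0.03).

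**Figure D5:**
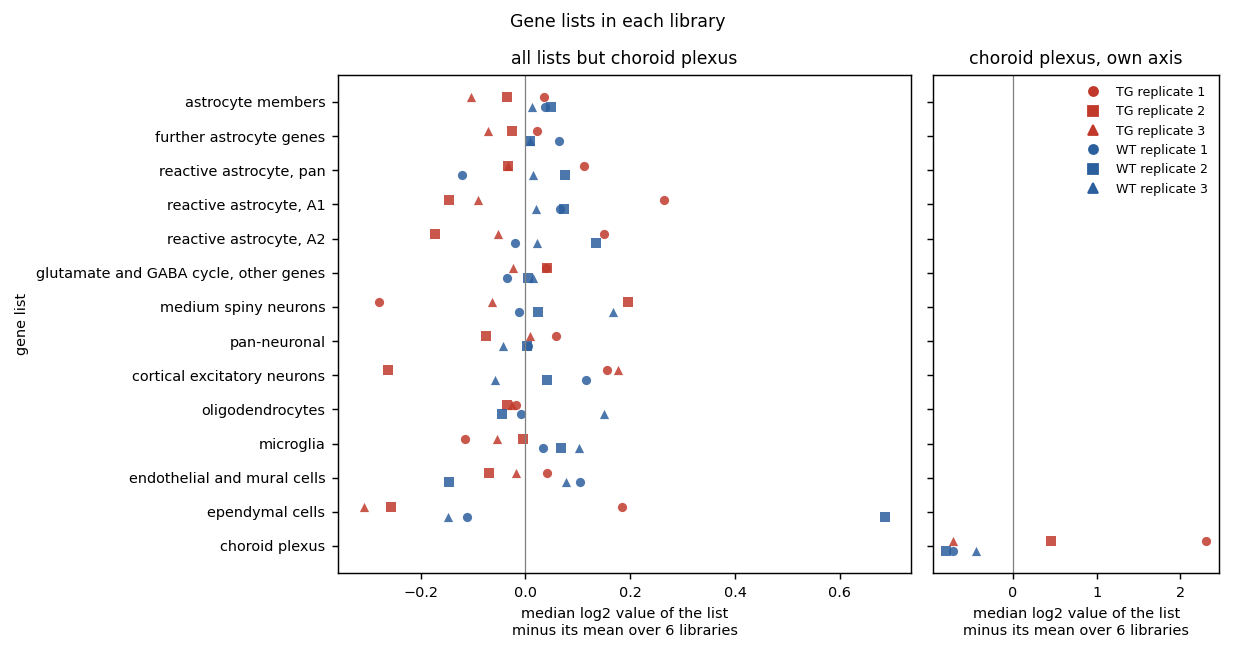
Median log2 value of each gene list in each library, relative to the gene means over the 6 libraries, for TG mice (red) and WT mice (blue), with the choroid plexus list on an axis of its own. The astrocyte genes lie between -0.10 and 0.05, ependymal markers are highest in WT replicate 2, and choroid plexus markers are highest in TG replicate 1 at 2.31.

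Markers of other cells were compared to see what else differed between the dissected tissues. Medium spiny neuron markers gave a median log2 fold change of -0.13, with 10 of 12 lower and summed levels of 136509 to 189324 normalized read counts in TG mice and 164469 to 188670.0 in WT mice, lowest in TG replicate 1. Microglia markers had TG means below the WT means in 12 of 12 genes (median -0.12), 4 of them at an unadjusted limma P value under 0.05 (all genes tested, 2.33%) and 6 without overlap (all genes tested, 5.05%), with summed levels of 13925 to 15109.6 against 15297 to 15929. Oligodendrocyte markers had a median of -0.05 (9 of 12 lower) and endothelial and mural markers -0.03 (8 of 12 lower). For cortical neuron markers it was -0.03 (6 of 10 lower), and for general neuronal markers 0.03 (2 of 10 lower). Cortical markers had their lowest summed level in TG replicate 2, at 62586.5 against 72628 to 80010 in the other libraries. That library held the lowest value of 9 of the 10 (90%, all genes tested 18.9%) and the highest medium spiny neuron sum, 189324. Immediate early genes had a median of -0.03 (5 of 10 lower). Choroid plexus markers had a median of 1.30, or 0.41 without TG replicate 1, and 13 of 13 tested markers were higher. Of these, 5 had an unadjusted limma P value under 0.05 (all genes tested, 1.98%) and 4 were without overlap (all genes tested, 5.06%). In TG replicate 3, the library lowest in most astrocyte genes, the summed levels were within the range of the other 5 libraries for medium spiny neuron, oligodendrocyte, microglia, endothelial, cortical and general neuronal markers. Ependymal markers were lowest in that library, with a summed level of 749 against 824 to 1474 and the lowest value of 6 of 9 tested markers. By limma, edgeR and DESeq2, 0 genes of these other-cell lists passed the adjusted P value. The part of tissue composition in the astrocyte values was not tested.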

How the data were processed

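Paired-end striatal libraries of 3 WT and 3 Shank3 TG mice were analysed, grouped by the sample labels. According to the paper's methods and the submitters' processing notes, the authors trimmed reads with Trimmomatic 0.35, aligned them with TopHat2 2.1.0 to GRCm38, obtained gene counts with HTSeq and normalized these by DESeq2 size factors. The deposited signal is this normalized count. Strand setting and annotation release are not given in the sources used here. Every value was a whole multiple of what 1 count is worth in its library (100% within 0.01), so counts were recovered for edgeR 4.0.16 and DESeq2 1.42.0, used as alternatives; the count tests called 1 gene (edgeR) and 7 genes (DESeq2).

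The main test was limma 3.58.1 (R 4.3.3) (trend option) on log2(value + 1), with a pseudocount of 1, genes with a mean of at least 10, and Benjamini-Hochberg adjustment over 17605 genes. Differences of low genes are understated on this scale. Of 46078 identifiers, 45229 matched GENCODE M21, whose merged exons gave lengths. Promoter sequences are from RefSeq (GRCm38.p6).

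On simulated data with 200 of 17605 genes changed, limma recovered 80% of genes at a log2 fold change of 1 and 64% at 0.5, with 11 false calls of 155. Smaller changes were not simulated. All 35 members lay between -0.42 and 0.16, so the recovery of differences of their size is not known. The genes and lists were chosen with earlier results of these data known, so no list is given a P value. All members were to be named, with the 3 most abundant genes and those under an unadjusted P value of 0.05 of each companion astrocyte list. Other-cell lists were to give their 3 most abundant genes, of which few are printed. The alternatives tried were TMM scaling, library totals, edgeR, DESeq2, DESeq2 with a prior and an empirical null from the central 75% of statistics, pseudocounts of 0.5 and 5, no filter, a mean of at least 50, each library left out, and a replicate block. With 1 library per mouse, the P values rest on the spread between libraries, in which mouse, dissection and library preparation cannot be told apart.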

Additional observations from a re-analysis of the deposited data

How the results depend on the processing

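Under 16 alternatives, 0 of the 35 astrocyte genes passed an adjusted P value of 0.05. Genes called over the whole table numbered 1 with limma, 7 with DESeq2, 15 with its prior and empirical null, 5 without a filter and 1 to 2 with each library left out. Members under an unadjusted P value of 0.05 numbered 5 lower and 0 higher. They numbered 4 lower with library totals (all genes tested, 2.12%) and with a mean of at least 50 (2.38%), Sox9 being lost in each. With the prior and empirical null there were 8 lower (all genes tested, 3.16%) and 1 higher, and without a filter 1 higher. With each library left out there were 1 to 7 lower (all genes tested, 1.35% to 4.55%) and 0 to 2 higher (1.48% to 2.99%). There was 1 lower without TG replicate 3 and 2 without WT replicate 2. Members without overlap numbered 5 lower and 1 higher. With each library left out they numbered 6 to 15 lower (all genes tested, 8.37% to 13%) and 1 to 2 higher (8.63% to 12.6%). The most lower ones (15, 10 and 8) were found without TG replicate 1, WT replicate 3 and WT replicate 2. Members with a log2 fold change below 0 numbered 29, and 23 to 30 with each library left out.

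The median log2 fold change of the members, -0.06, ranged from -0.10 to -0.03 with each library left out. That of the shared reactive list ranged from -0.034 to 0.085 (lowest without WT replicate 3, highest without WT replicate 2), that of the A1 list from -0.145 to 0.055 (without TG replicates 1 and 3) and that of the choroid plexus list from 0.405 upwards. With DESeq2 and its fold change prior the choroid plexus median was 0.030. The empirical null changes P values only and does not enter this median, and the cause was not tested.

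In 540 of 560 comparisons of a single member with its alternative the direction was kept, and 23 members never reversed. With each library left out, the log2 fold change ranged from -0.028 to 0.087 for Slc1a3, -0.055 to 0.094 for Aldh1l1, -0.115 to 0.031 for Gja1, -0.061 to 0.014 for Ndrg2, -0.071 to 0.0039 for Slc7a10, -0.13 to 0.028 for Slc4a4, -0.024 to 0.065 for Ppp1r3c, -0.089 to 0.013 for Ntsr2, -0.133 to 0.018 for Cst3, -0.056 to 0.027 for F3, -0.032 to 0.016 for Htra1 and -0.136 to 0.00028 for Plpp3. Scaling by library totals brought F3 to 0.0038, on the other side of 0. The labels tie the replicate numbers to no shared litter or day, so they do not pair the libraries, and the deviations of same-numbered libraries correlated at 0.05, 0.02 and 0.09. With the replicate block 7 members were lower at an unadjusted P value under 0.05 (all genes tested, 3.215%). With it 0 members were called, and 1 gene was called over all genes. Each member had at least 357 recovered counts in every library.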
